A study of Mus musculus with 45 samples.

Results

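Liver gene expression was compared between mice given the Gl-2 extract and mice given the Gl-1 extract of the Mexican strain CP-145 of the medicinal mushroom Ganoderma lucidum. The comparison uses every liver array whose label names either extract, that is 3 arrays of HCD+Gl-2 and 3 of HCD+Gl-1, or 6 of the 45 arrays in the series, and all 22080 genes of the table. Both groups were male C57BL/6 mice, 7 weeks old at the start and 8 per group, on the standard diet with 0.5% cholesterol (HCD) and 1.0% lyophilized hydroalcoholic extract, sacrificed on day 43 after 8 h without food and water. The extracts differ in how the basidiocarps were grown, on oak sawdust alone for Gl-1 and on the same sawdust with 10 mM acetylsalicylic acid for Gl-2, and the question is what that difference changed in the liver. The other liver groups were Control (standard diet), HCD alone and HCD+Sim (HCD with 0.03% simvastatin by weight), and kidney and brain were measured in the same 5 groups. In each group the RNA of 4 mice was combined as pool A and that of the remaining 4 as pool B, and pool C is described in the methods as A plus B, so 2 separate pools stand behind the 3 arrays. The fit counts the 3 arrays as replicates and takes the spread over all groups, so its p-values do not measure the spread between separate pools or mice. Mice were assigned to the groups at random, and the design text says that allocation and treatment were not blinded and that confounders were not controlled.

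Many of the genes described here are immediate early genes, which a cell transcribes within minutes of a growth factor, cytokine or stress signal because their factors are already in place. The first proteins made are transcription factors such as Fos, Jun and Egr1, followed by phosphatases and RNA decay factors that end the signal. In liver they are known to answer to regeneration, injury, hormones and the handling of the tissue. Heat shock genes answer to misfolded protein through the factor Hsf1, and metallothioneins to zinc and glucocorticoids.

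Expression is given as the deposited log2 values, on which a difference of 1 is a doubling. Array medians of the 15 liver arrays lay between 6.76 and 6.92, and p-values come from a limma fit that takes its estimate of the spread from all 45 arrays. The tissue was checked because the labels disagree on it: the title, source and characteristics of these arrays say liver, while their description field says brain. The median of 10 hepatocyte markers (albumin, apolipoproteins and others) was 13.13 to 13.21 on the HCD+Gl-2 arrays and 13.14 to 13.15 on the HCD+Gl-1 arrays, so both groups read as liver. None of the 13 lists of cell type markers held a DE gene. Of all their members, only the hemoglobin gene Hbb-bs had an adjusted p of at most 0.05. The endothelial median was 8.66, 8.19 and 8.83 on HCD+Gl-2 pools A, B and C against 8.31 to 8.37 on the HCD+Gl-1 arrays, and its part in the results below was not tested. In such bulk RNA, fewer cells of a type and less RNA per cell cannot be told apart.

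With an adjusted p of 0.05 or less and a log2 fold change beyond 0.7 in either direction, 38 genes were differentially expressed (DE) in liver between Gl-2 and Gl-1, which is 0.172% of the genes. Of these, 31 were higher with Gl-2 (0.14% of the genes) and 7 lower (0.0317%). Immediate early genes led the higher side: Egr1, Fos and Jun, then the heat shock gene Dnajb1. The lower genes were the scavenger receptor genes Dmbt1 and Msr1, the cytochrome P450 Cyp2b9, the eosinophil ribonuclease Rnase2a, the liver microRNA gene Mir122, Arrdc3 and Ttc30b. At the adjusted p alone, 870 genes (3.94%) passed, 315 higher (1.43%) and 555 lower (2.51%), so the larger changes ran mostly upward and the smaller ones mostly downward. The median over all genes was 0.02. The genes just inside the threshold were Snord14e (0.71), Cabyr (0.72) and Ttc30b (-0.74), and those just outside were Klf10 (0.68), Slc41a2 (-0.68) and Me1 (-0.68).

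The higher genes were not high on every HCD+Gl-2 array. In all 31, pools A and C lay above every HCD+Gl-1 array, and pool B was the lowest of the 3 HCD+Gl-2 arrays. The median difference from the HCD+Gl-1 mean was 1.19 in pool A, 0.15 in pool B and 1.54 in pool C. In 16 of the 31, pool B did not lie above the highest HCD+Gl-1 array, so the groups overlapped. The 15 others did not overlap, and all HCD+Gl-2 arrays lay above all HCD+Gl-1 arrays in 9.36% of all genes. Across their 3 arrays the median SD of the 31 genes was 0.75 in HCD+Gl-2, against 0.16 in HCD+Gl-1, 0.12 in HCD, 0.12 in Control and 0.14 in HCD+Sim. Over all genes it was 0.114 in HCD+Gl-2, 0.126 in HCD+Gl-1, 0.102 in HCD, 0.104 in Control and 0.123 in HCD+Sim. The wide spread was thus that of these 31 genes, which were chosen on the same arrays, and not of HCD+Gl-2 in general. The 7 lower genes differed from the HCD+Gl-1 mean by medians of -0.78, -0.95 and -1.07 in pools A, B and C, and only Dmbt1 of them overlapped between the groups, where all HCD+Gl-2 arrays lay below all HCD+Gl-1 arrays in 5.77% of all genes and the groups did not overlap in 15.1%.

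**Figure D1:**
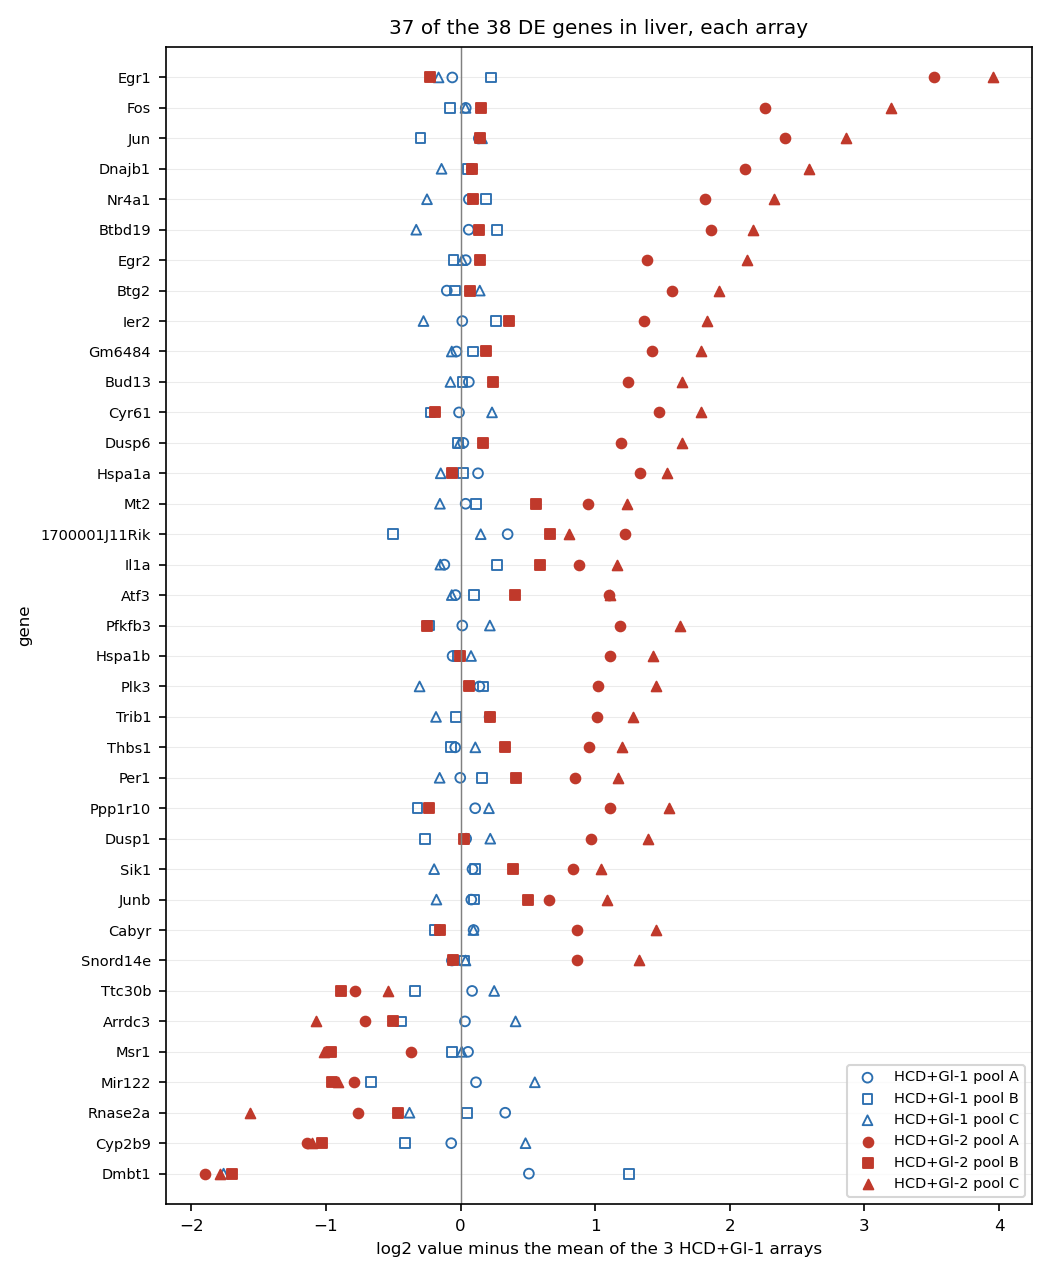
The log2 value of each array minus the mean of the 3 HCD+Gl-1 arrays (x axis) is drawn for 37 of the 38 DE genes in liver (y axis), with filled symbols for HCD+Gl-2, open symbols for HCD+Gl-1 and 1 shape for each pool. Pool B of HCD+Gl-2 is the lowest HCD+Gl-2 array in every higher gene drawn, while the 7 lower genes have no such single pool.

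In many of the genes given here, pool C did not lie where a mix of pools A and B would place it. For a mix in equal parts the expected value is log2 of the mean of the linear values of A and B. In the 31 higher genes pool C of HCD+Gl-2 lay above this by a median of 0.85, above both pools in 30 and between them in 1. These 31 were chosen on fold changes that include pool C, so a high pool C is partly built in. Over all genes pool C of HCD+Gl-2 lay between pools A and B in 33.4%. For Egr1 the expected value was 9.83 and the measured one 11.16. The acute phase genes Saa1 and Saa2 went the other way in both groups. Saa1 read 10.67, 11.29 and 7.59 on pools A, B and C of HCD+Gl-2, and 11.03, 11.63 and 8.25 on those of HCD+Gl-1, so both C arrays lay over 3 units below the mix (-3.42 and -3.11). Of the lower genes, Dmbt1 on pool C of HCD+Gl-1 lay 2.69 below its mix value of 7.65. Such gaps were few. Pool C lay more than 1 unit above the mix for 11 genes in HCD+Gl-2 and 2 in HCD+Gl-1, and more than 1 unit below for 10 and 9. Among genes whose pools A and B differed by more than 0.5, pool C lay between them for 68.1% of 728 in HCD+Gl-2 and 63.8% of 478 in HCD+Gl-1. With no limit on the gap, over all genes, these shares were 33.4% and 26.8%.

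The calls depended on which arrays were fitted. With the 15 liver arrays alone no gene was DE or reached an adjusted p of 0.05 (limma, Benjamini-Hochberg adjustment), with 2780 genes at an unadjusted p under 0.05. All 38 were among those 2780, at adjusted p between 0.0902 and 0.342. With the 6 compared arrays alone no gene was DE either, with 2037 genes at an unadjusted p under 0.05, among them all 38. With pools A and B only, 5 genes were DE, and Dmbt1 was the one of the 38 among them. The median standard error of the 38 genes was 0.199 with all arrays, 0.262 with liver arrays and 0.279 with the compared arrays, while the fold changes of the fits that keep all 6 arrays are the same. Leaving out 1 array at a time gave 25 DE genes without Gl-2 pool C (15 of the 38 kept), 29 without Gl-1 pool C (25 kept), 40 without Gl-1 pool A (30 kept), 45 without Gl-2 pool A (28 kept), 71 without Gl-2 pool B (35 kept) and 93 without Gl-1 pool B (34 kept). The 12 genes that stayed DE with each of the 6 arrays left out were Fos, Jun, Dnajb1, Btbd19, Btg2, Ier2, Gm6484, Bud13, Mt2, Il1a, Atf3 and Dmbt1. None of the 38 changed sign under any of the alternatives.

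**Figure D2:**
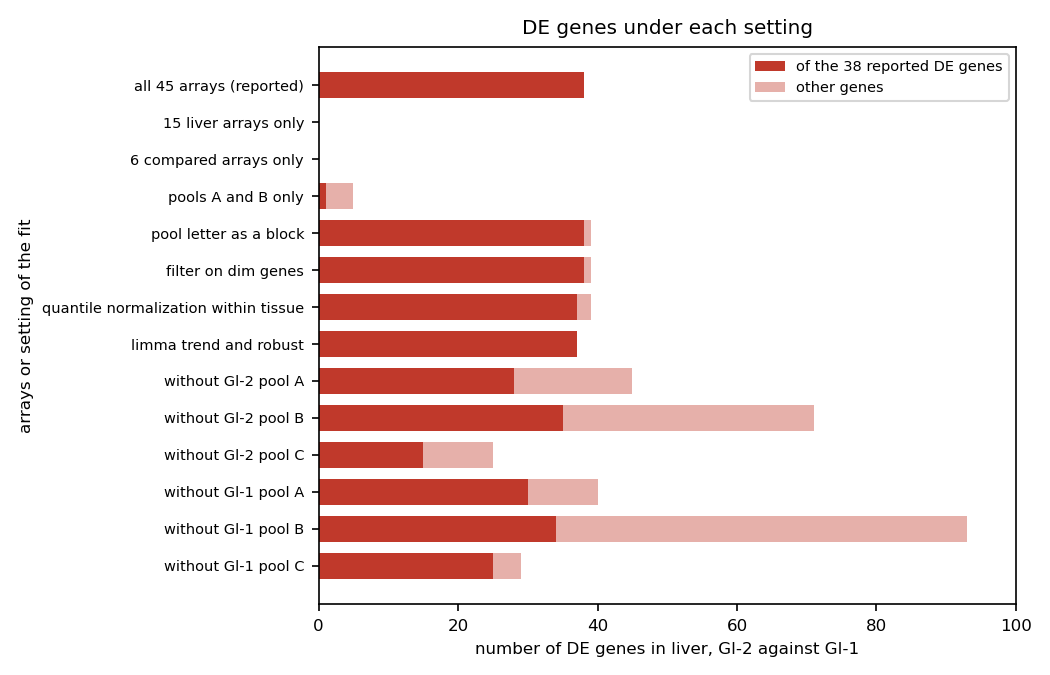
Bars give the number of DE genes in liver (x axis) for each choice of arrays or setting (y axis), dark for genes among the 38 reported and light for other genes. The bars fall to 0 when only the 15 liver arrays or the 6 compared arrays are fitted, and to 5 with pools A and B only.

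AP-1 is the dimer of Fos and Jun proteins that binds many growth and stress response genes. Of 13 measured AP-1 subunit genes, 4 were DE, all higher with Gl-2, and 7 had an adjusted p of at most 0.05. Among all genes 0.14% were DE and higher, and 1.43% were higher at that adjusted p. All 13 AP-1 genes had a positive fold change, as did 56% of all genes. Their median was 0.35 against 0.02 over all genes. Fos read 8.66, 6.55 and 9.60 on HCD+Gl-2 pools A, B and C and 6.43, 6.32 and 6.43 on HCD+Gl-1. The arrays did not overlap, but pool B lay just above the HCD+Gl-1 values. The log2 fold change of Fos was 1.87, or 3.66-fold (SE 0.32, adjusted p 0.000767 from limma), and 1.21 without pool C of HCD+Gl-2. Jun, its partner, read 9.56, 7.29 and 10.01 against 7.28, 6.85 and 7.31, with pool B inside the HCD+Gl-1 range, and its log2 fold change was 1.81 (SE 0.31, adjusted p 0.000841). Junb, a Jun family member, was less uneven: 7.90, 7.74 and 8.32 against 7.32, 7.34 and 7.06, a log2 fold change of 0.75 that no longer passed without pool C of either group (lowest 0.58). Atf3, a stress-induced member of the ATF family that pairs with Jun proteins, was 0.87 higher and its arrays did not overlap. Fosb (0.51), Fosl2 (0.40) and Jund (0.35) passed the adjusted p without reaching the fold threshold.

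Of 22 other immediate early regulators, 5 were DE, all higher, and 10 passed the adjusted p, with a median of 0.31. Shares over all genes were 0.14% DE and higher, and 1.43% higher at the adjusted p. Egr1, a zinc finger factor induced by serum and stress, had the largest change of all genes. Its values were 10.72, 6.98 and 11.16 on HCD+Gl-2 pools A, B and C and 7.14, 7.43 and 7.04 on HCD+Gl-1, so pool B was the lowest of all 6 arrays. The log2 fold change was 2.42, or 5.33-fold (SE 0.48, adjusted p 0.00317), and without pool C of HCD+Gl-2 it was 1.65 and Egr1 was no longer DE. Egr2, its relative, read 7.74, 6.50 and 8.48 against 6.39, 6.30 and 6.37, a log2 fold change of 1.22 whose call also rested on that array (0.77 without it). Nr4a1, an orphan nuclear receptor that raises hepatic glucose output genes, read 8.69, 6.97 and 9.20 against 6.94, 7.06 and 6.63, with pool B inside the HCD+Gl-1 range, a log2 fold change of 1.41 and no call without pool C of HCD+Gl-2 (0.95). Ier2 (8.19, 7.19 and 8.65 against 6.84, 7.08 and 6.55) and the antiproliferative gene Btg2 (8.45, 6.95 and 8.80 against 6.78, 6.84 and 7.02) both had a log2 fold change of 1.19. Ier2 did not overlap between groups and Btg2 did, and both stayed DE with each array left out.

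The promoters of Btg2 and Egr2 are shown because each holds an intact response element. It is a cAMP response element (CRE, TGACGTCA) in Btg2 and a CArG box, the site of serum response factor, in Egr2. Dusp1 is added as the other DE gene with a CRE. Each sequence is the 250 bases before the RefSeq start on the gene's strand in GRCm38.p6, with the element in capitals: chr1:134079156-134079405 on the minus strand for Btg2, chr17:26508473-26508722 on the minus strand for Dusp1, and chr10:67537316-67537565 on the plus strand for Egr2. Of the 5 starts of Egr2, the start shown is the first whose 250 bases hold the element, so it was picked for holding it.
Btg2: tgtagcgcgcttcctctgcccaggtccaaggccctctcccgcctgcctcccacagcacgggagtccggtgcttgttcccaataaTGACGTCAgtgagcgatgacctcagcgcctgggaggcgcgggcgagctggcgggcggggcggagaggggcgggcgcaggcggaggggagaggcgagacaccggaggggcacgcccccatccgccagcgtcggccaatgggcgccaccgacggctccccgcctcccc
Dusp1: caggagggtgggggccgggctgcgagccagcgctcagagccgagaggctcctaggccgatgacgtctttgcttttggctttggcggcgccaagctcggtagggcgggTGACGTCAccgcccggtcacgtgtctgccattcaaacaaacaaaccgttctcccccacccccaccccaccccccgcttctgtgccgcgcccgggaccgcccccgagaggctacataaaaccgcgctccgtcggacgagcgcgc
Egr2: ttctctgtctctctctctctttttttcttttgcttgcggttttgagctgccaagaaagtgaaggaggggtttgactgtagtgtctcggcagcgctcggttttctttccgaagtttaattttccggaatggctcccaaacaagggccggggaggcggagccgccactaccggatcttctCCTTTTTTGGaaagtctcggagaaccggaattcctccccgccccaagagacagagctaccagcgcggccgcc
The table held a promoter for 25 of the 38 genes, and a gene was counted if any of its starts had a match. The full 8-base CRE, searched on both strands, was in 2 of the 25 and in 1.55% of the 32851 windows in the table, counted start by start. Only the 250 bases before each start were searched. The CArG box was in 1 of the 25 and in 1.47% of all windows, and the AP-1 site TGANTCA in 2 of the 25 (Il1a and Mt2) and in 6.75%. A match is a string of letters and does not show binding.

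Signals of this kind are ended by dual specificity phosphatases, RNA decay factors and kinases. Of 30 such genes, 4 were DE, all higher, and 7 passed the adjusted p, with a median of 0.15. Here and for the cAMP list below, the shares over all genes were 0.14% DE and higher, and 1.43% higher at the adjusted p. Dusp6, the phosphatase that inactivates ERK, read 9.98, 8.96 and 10.44 on HCD+Gl-2 against 8.81, 8.77 and 8.78 on HCD+Gl-1, so its arrays did not overlap and the HCD+Gl-1 arrays were nearly equal. Its log2 fold change was 1.00 (SE 0.18, adjusted p 0.0012), and 0.68 and not DE without pool C of HCD+Gl-2. Dusp1, which inactivates p38 and JNK, was 0.80 higher (adjusted p 0.0235), overlapped between the groups and, of the 6 fits with 1 array left out, kept its call only without pool B of HCD+Gl-2. The pseudokinase Trib1 (0.84) and the stress kinase Plk3 (0.84) were the other DE members. Without pool C of HCD+Gl-2 they were at 0.62 and 0.54 and not DE, and Plk3 also lost its call without Gl-2 pool A or Gl-1 pool C. Zfp36, which destabilizes cytokine messages, and the calcineurin inhibitor Rcan1 were at 0.63 and 0.67, below the fold threshold. Of 20 genes known as cAMP and CREB targets, 3 were DE, all higher, with a median of 0.17: the salt-inducible kinase Sik1 (0.76), the clock gene Per1 (0.81) and Nr4a1. Sik1 was not DE without pool C of either group.

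Secreted and matrix proteins form a later step of the same response. Of 16 measured, 3 were DE, all higher, with a median of 0.16, beside 0.14% of all genes DE and higher. Thbs1, which activates latent TGF-beta, read 7.42, 6.80 and 7.67 against 6.43, 6.40 and 6.58 with no overlap, a log2 fold change of 0.83 with the smallest adjusted p among the 38 (SE 0.12, adjusted p 0.000179). It was not DE without pool C of HCD+Gl-2 (0.64). Cyr61, a matricellular protein now named Ccn1, read 9.87, 8.21 and 10.18 against 8.38, 8.17 and 8.63, with pool B inside the HCD+Gl-1 range and a log2 fold change of 1.02 (adjusted p 0.0223). Its call was lost without pool A or pool C of either group, and its fold change with 1 array left out lay between 0.64 and 1.63.

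Among 27 cytosolic heat shock genes 3 were DE, all higher, beside 0.14% of all genes DE and higher. The other 24 did not pass the adjusted p, so the median of the list was 0.02, that of all genes. Dnajb1, the Hsp40 partner of inducible Hsp70, read 9.54, 7.51 and 10.01 on HCD+Gl-2 against 7.51, 7.48 and 7.28 on HCD+Gl-1. Its log2 fold change was 1.59, or 3.02-fold (SE 0.28, adjusted p 0.00108). The inducible Hsp70 genes Hspa1a (8.05, 6.66 and 8.26 against 6.85, 6.74 and 6.58) and Hspa1b (9.12, 8.00 and 9.43 against 7.95, 7.99 and 8.08) had log2 fold changes of 0.94 and 0.85. Without pool C of HCD+Gl-2 these were 0.64 and 0.55 and neither was DE, and Hspa1a also lost its call without Gl-2 pool A or Gl-1 pool C. In all 3 pool B lay at or below the highest HCD+Gl-1 array. Hsph1 (0.60, adjusted p 0.113) and the cochaperone Bag3 (0.49, adjusted p 0.0882) did not pass, and the constitutive Hspa8 was at 0.18 (adjusted p 0.228). The Hspa1a and Hspa1b copies are nearly identical, so their probes may read each other's transcripts and the pair is not 2 independent results.

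Their promoters are shown for this likeness and for the heat shock element, the site of Hsf1 (searched as GAANNTTC on both strands, in capitals). Hspa1a is at chr17:34972157-34972406 and Hspa1b at chr17:34959239-34959488, both on the minus strand of GRCm38.p6 and 250 bases long.
Hspa1a: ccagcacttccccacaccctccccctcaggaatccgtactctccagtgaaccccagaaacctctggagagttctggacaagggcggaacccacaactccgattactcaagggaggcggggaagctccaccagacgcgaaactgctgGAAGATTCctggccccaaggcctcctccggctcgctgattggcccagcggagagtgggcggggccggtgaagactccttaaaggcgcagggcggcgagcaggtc
Hspa1b: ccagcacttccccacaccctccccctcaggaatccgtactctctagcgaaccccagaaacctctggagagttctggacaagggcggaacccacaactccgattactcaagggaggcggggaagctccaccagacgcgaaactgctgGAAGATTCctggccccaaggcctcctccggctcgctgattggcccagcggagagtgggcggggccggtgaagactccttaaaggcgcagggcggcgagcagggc
They match in 247 of 250 bases (98.8%), and the element lies at position -104 from the start site in both. A heat shock element was in 4 of the 25 DE genes with a promoter (Hspa1a, Hspa1b, Jun and Ppp1r10), counted by gene, and in 6.69% of all windows.

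Metallothioneins bind zinc and copper. Mt2 and Mt1 were both higher with Gl-2, and pool B took part. Mt2 read 12.01, 11.62 and 12.29 on HCD+Gl-2 against 11.09, 11.17 and 10.90 on HCD+Gl-1, with no overlap, a log2 fold change of 0.92 (SE 0.16, adjusted p 0.00108) and a call that held with each array left out (0.75 to 1.09). Mt1 read 12.58, 12.33 and 12.90 against 12.01, 11.90 and 11.99, a change of 0.64 (adjusted p 0.000641) under the fold threshold. Mtf1, the zinc sensor that drives both, was at 0.29 (adjusted p 0.00771). The other 8 of 11 genes of the list, among them the zinc carriers Slc30a1 (0.08) and Slc39a14 (-0.01), did not pass. Over all genes 1.43% were higher at the adjusted p. Mt2 and Mt1 lie 5316 bases apart. The Mt2 promoter (chr8:94172368-94172617, plus strand, GRCm38.p6, 250 bases) is shown because it holds 5 matches to the core of the metal response element, TGCNCNC, in capitals on either strand.
Mt2: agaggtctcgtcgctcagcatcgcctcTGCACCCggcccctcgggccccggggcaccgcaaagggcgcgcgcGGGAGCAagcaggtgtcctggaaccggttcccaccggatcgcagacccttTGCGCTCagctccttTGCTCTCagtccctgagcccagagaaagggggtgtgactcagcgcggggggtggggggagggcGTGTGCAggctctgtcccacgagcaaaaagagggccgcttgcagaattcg
This core is short and was in 44.4% of all windows, counted by start. It was in 16 of the 25 DE genes with a promoter, counted by gene over all starts, so the 2 shares are not alike.

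Interleukin 1 is made by macrophages and drives NF-kappaB. Il1a read 7.35, 7.07 and 7.64 on HCD+Gl-2 against 6.35, 6.74 and 6.32 on HCD+Gl-1, with no overlap and a log2 fold change of 0.88 (SE 0.15, adjusted p 0.000702) that held with each array left out (0.74 to 1.02). Il1b, its close relative, was at 0.66 (adjusted p 0.00821), with 6.67, 6.49 and 7.07 against 6.20, 6.09 and 5.96. The receptor Il1r1 was lower by a log2 fold change of -0.47 (adjusted p 0.00889). The remaining 22 of the 25 cytokine genes did not pass and their list median was 0.07. Over all genes 3.94% passed. The macrophage and Kupffer cell marker median was 8.32 to 8.67 with Gl-2 and 8.23 to 8.65 with Gl-1, so these levels overlapped.

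Of the DE genes, 10 were in none of the gene lists, 7 higher and 3 lower. Gm6484, now named Angptl8, encodes a feeding-induced liver hormone that acts on lipoprotein lipase. It read 10.41, 9.18 and 10.78 on HCD+Gl-2 against 8.96, 9.09 and 8.93 on HCD+Gl-1, above all of them in every pool but only slightly so in pool B, with a log2 fold change of 1.13 (SE 0.19, adjusted p 0.000702). The RNA splicing factor gene Bud13 read 8.46, 7.45 and 8.86 against 7.27, 7.22 and 7.14, a log2 fold change of 1.04 (SE 0.16, adjusted p 0.000405). Its neighbour Zpr1, 333 bases away, was at 0.56 (adjusted p 0.00336). Btbd19 read 8.17, 6.45 and 8.48 against 6.37, 6.58 and 5.98 (1.39, SE 0.24, adjusted p 0.000841) and lies 2997 bases from Plk3. The small nucleolar RNA Snord14e (0.71) lies within Hspa8, whose own value did not pass. Ppp1r10, a nuclear subunit of protein phosphatase 1, had a log2 fold change of 0.81. Without pool C of HCD+Gl-2, Snord14e was at 0.41 and Ppp1r10 at 0.44. Both lost their call without pool A or pool C of HCD+Gl-2, and Snord14e also without Gl-1 pool A and Ppp1r10 without Gl-1 pool B. Cabyr (0.72) and the unnamed gene 1700001J11Rik (0.90) complete the higher ones, and the latter lost its call without Gl-2 pool A, Gl-1 pool B or Gl-1 pool C. Cabyr lost its call with quantile normalization within tissue and without any array but Gl-2 pool B.

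The lower genes lay below the HCD+Gl-1 mean in every HCD+Gl-2 pool. Cyp2b9, a cytochrome P450 that is low in male mouse liver on a standard diet, read 5.34, 5.45 and 5.37 on HCD+Gl-2 against 6.41, 6.07 and 6.96 on HCD+Gl-1, a log2 fold change of -1.09 (SE 0.21, adjusted p 0.00275). It was not DE without pool C of HCD+Gl-1 (-0.85). HCD alone read 8.71, 7.88 and 9.08 and Control 5.28, 5.17 and 5.62, so the HCD+Gl-2 arrays lay at the Control level and the HCD+Gl-1 arrays between Control and HCD. It was the DE gene among 30 measured CAR and PXR targets, whose median was 0.02, beside 0.172% of all genes DE. Cyp2b10, the usual marker of CAR activity, was at 0.20 (adjusted p 0.497).

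Msr1, the macrophage scavenger receptor for modified lipoproteins, read 6.75, 6.16 and 6.11 against 7.17, 7.05 and 7.13, a log2 fold change of -0.78 (SE 0.13, adjusted p 0.000702). Without pool B or pool C of HCD+Gl-2 the call was lost. Dmbt1, a secreted scavenger receptor of epithelia, read 4.83, 5.03 and 4.94 with Gl-2 and 7.23, 7.97 and 4.96 with Gl-1. Only pools A and B of HCD+Gl-1 were high, and pool C was at the level of HCD alone (5.17, 4.91 and 5.26). Its log2 fold change was -1.79 (SE 0.32, adjusted p 0.0012), from -2.67 without pool C of HCD+Gl-1 to -1.17 without pool B. Of 19 pattern recognition and scavenger receptors these 2 were DE, Cd36 (-0.38) and Scara5 (-0.31) passed the adjusted p, and the median was -0.02. Over all genes 0.0317% were DE and lower, and 2.51% were lower at the adjusted p.

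Rnase2a, an eosinophil granule ribonuclease, read 5.64, 5.94 and 4.84 against 6.73, 6.45 and 6.02, with no overlap and the largest adjusted p of the 38 (-0.93, SE 0.27, adjusted p 0.0448). It was the one DE gene of 17 measured eosinophil and neutrophil granule genes, whose median was 0.00, and it lost its call with the trend and robust options of limma and without pool A or pool C of either group (-0.61 without Gl-2 pool C). Mir122, the gene of the most abundant liver microRNA, read 6.63, 6.47 and 6.51 against 7.54, 6.76 and 7.98, a log2 fold change of -0.89 (adjusted p 0.0267) that lost its call without any of 4 of the 6 arrays. Arrdc3, an arrestin-like gene tied to energy balance, read 10.17, 10.37 and 9.80 against 10.91, 10.43 and 11.28 (-0.76, adjusted p 0.00117). Pool B of both groups was nearly equal for it, and without pool C of either group it was not DE (-0.56 at the smallest). Ttc30b, a gene of intraflagellar transport, was at -0.74 (adjusted p 0.014) and not DE without Gl-2 pool B, Gl-1 pool A or Gl-1 pool C.

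Of 27 genes of the endoplasmic reticulum stress response, among them the chaperones of that compartment, none was DE. With Gl-2, 9 were lower at an adjusted p of at most 0.05, beside the 2.51% of all genes lower at that threshold, and the other 18 did not pass. The list median was -0.20, and -0.20, -0.24 and -0.22 in pools A, B and C against the HCD+Gl-1 mean, which the 3 values share. It was -0.15 with pools A and B only and -0.16 with quantile normalization within tissue. Without Gl-1 pool C it was -0.14, and without Gl-1 pool B -0.28. The disulfide isomerase Pdia6 read 10.66, 10.74 and 10.52 against 11.26, 11.13 and 11.35 (-0.61, adjusted p 0.000337). Pdia4 (-0.53), Pdia3 (-0.52), Hsp90b1 (-0.49), Hyou1 (-0.49), Dnajb11 (-0.59), Creld2 (-0.59), Sdf2l1 (-0.47) and Dnajc3 (-0.40) made up the rest. Hspa5, the main chaperone of this compartment, did not pass (-0.19, adjusted p 0.349). Derl3, which takes misfolded protein out for degradation, was at -0.71 (adjusted p 0.0543) and was DE when the pool letter was a block. Against HCD the list median was 0.04 with Gl-1 and -0.08 with Gl-2.

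The period genes of the clock were higher with Gl-2. Of 18 clock genes 1 was DE, Per1, which read 9.55, 9.11 and 9.87 on HCD+Gl-2 against 8.70, 8.86 and 8.54 on HCD+Gl-1 with no overlap (0.81, adjusted p 0.00144). Per1 was not DE without pool C of HCD+Gl-2 (0.63). Per2 (0.65), Per3 (0.46) and the repressor Ciart (0.66) passed the adjusted p, and Clock, of the opposite phase, was lower (-0.40, adjusted p 0.0152). The list median was 0.28, and 0.12 with pools A and B only. Over all genes 1.43% were higher and 2.51% lower at the adjusted p.

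**Figure D3:**
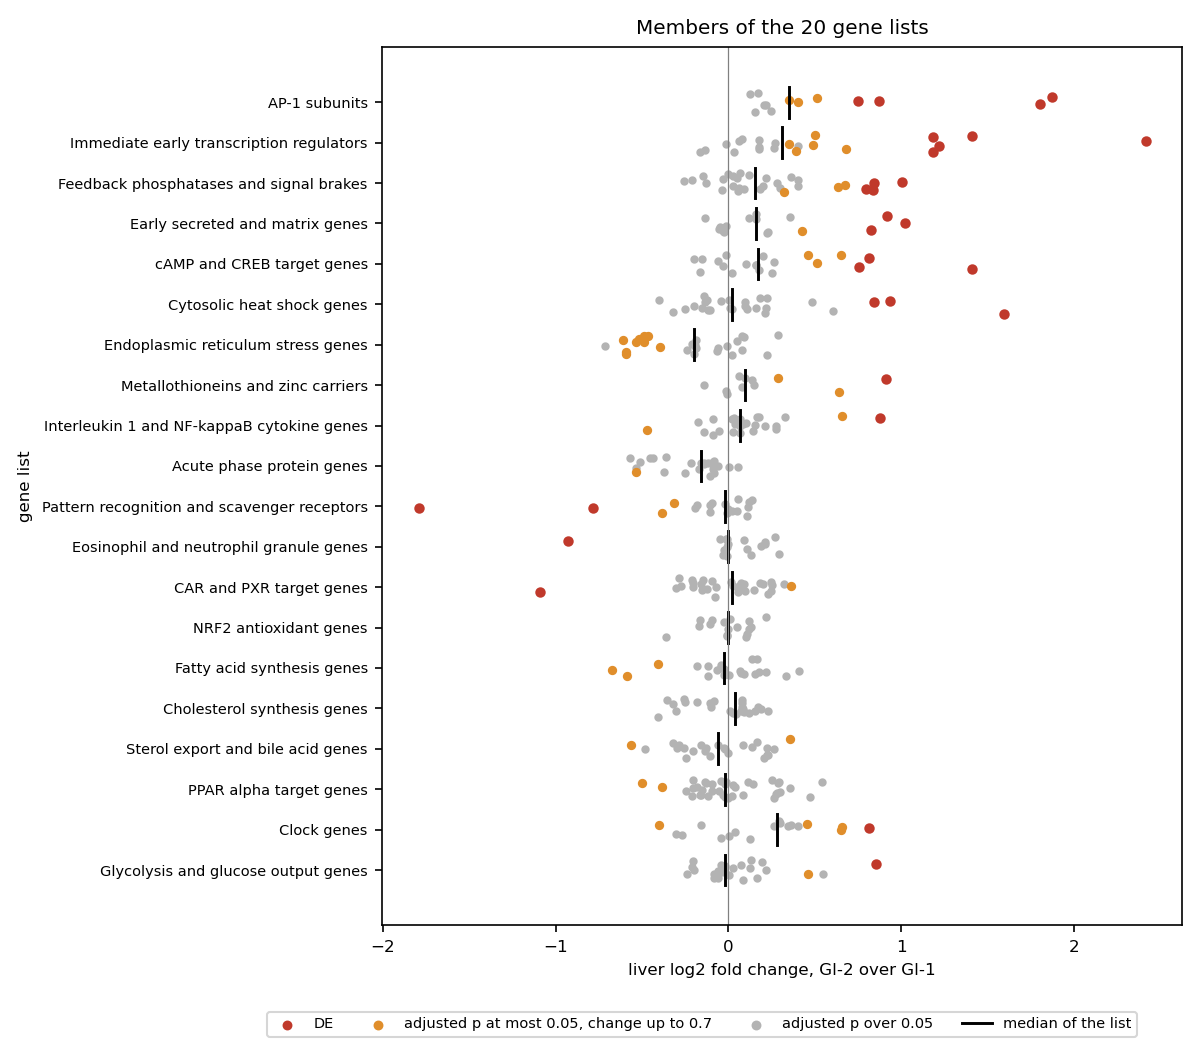
Each point is a gene, placed by its liver log2 fold change of Gl-2 over Gl-1 (x axis) within the 20 gene lists (y axis), with DE genes, genes at an adjusted p of at most 0.05 and other genes in separate colours and a bar at each list's median. All 13 AP-1 genes lie above 0, 20 of the 27 endoplasmic reticulum stress genes lie below 0, and the lipid lists are centred near 0. Of all genes measured, 56% lie above 0.

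The lipid genes differed little between the extracts. For the lists of this paragraph, the shares over all genes were 0.172% DE, and 1.43% higher and 2.51% lower at the adjusted p. No gene of the cholesterol synthesis list passed the adjusted p (24 measured, median 0.04, limma). Of 23 genes of fatty acid synthesis none was DE and 3 passed the adjusted p, all lower: malic enzyme Me1 (-0.68), Insig2 (-0.59) and Elovl5 (-0.41). Fasn was at 0.34 (adjusted p 0.364). Of 38 PPAR alpha targets none was DE, and the fatty acid carrier Cd36 and the lipid droplet protein Plin2 (-0.50) were lower at the adjusted p. Of 25 sterol export and bile acid genes, the sterol transporter Abcg8 was higher (0.36, adjusted p 0.00766) and Cyp7b1, of the alternative bile acid pathway, lower (-0.56, adjusted p 0.00452). Cyp7a1, the rate-limiting enzyme of bile acid synthesis, was at 0.20 (adjusted p 0.537). None of 17 NRF2 targets passed. Of 25 genes of glycolysis and glucose output, Pfkfb3, which makes the activator of glycolysis, was DE (0.86, adjusted p 0.017) and overlapped between the groups. Its call was lost without Gl-2 pool A, Gl-2 pool C or Gl-1 pool A, with a fold change between 0.47 and 1.41 when 1 array was left out. The insulin receptor substrate Irs2 was at 0.46. Of 23 acute phase genes 21 had a negative fold change, where 56% of all genes had a positive one. The list median was -0.16 (-0.04 without pool C of HCD+Gl-2), and 1 of the 23, Steap4, passed the adjusted p (-0.53).

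Each extract against HCD shares the HCD arrays, so those values are given side by side. The 38 genes were chosen on the same extract arrays, so the counts of them DE against HCD are not a separate result. Of the 31 higher genes 28 lay within 0.3 of HCD with Gl-1, and the median was -0.02 for Gl-1 against HCD and 1.01 for Gl-2 against HCD. DE against HCD were 28 of the 38 with Gl-2, where 0.303% of all genes were DE (0.208% higher and 0.0951% lower), and 4 with Gl-1, where 0.163% were (0.0951% higher and 0.0679% lower). The 4 were Mt2, Rnase2a, Cyp2b9 and Dmbt1. Egr1 read 7.14, 7.07 and 7.25 in HCD and 7.08, 7.38 and 7.32 in Control, the level of HCD+Gl-1. Mt2 read 9.93, 9.27 and 10.41 in HCD and 10.85, 10.78 and 11.02 in Control, so Gl-1 (log2 fold change 1.19) and Gl-2 (2.11) were both above HCD. Dmbt1 and Rnase2a differed from HCD with Gl-1 (1.61 and 1.11) and not detectably with Gl-2 (-0.18 and 0.18). Gm6484 read 9.45, 9.88 and 9.45 in HCD, above the HCD+Gl-1 arrays and above pool B of HCD+Gl-2 too.

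**Figure D4:**
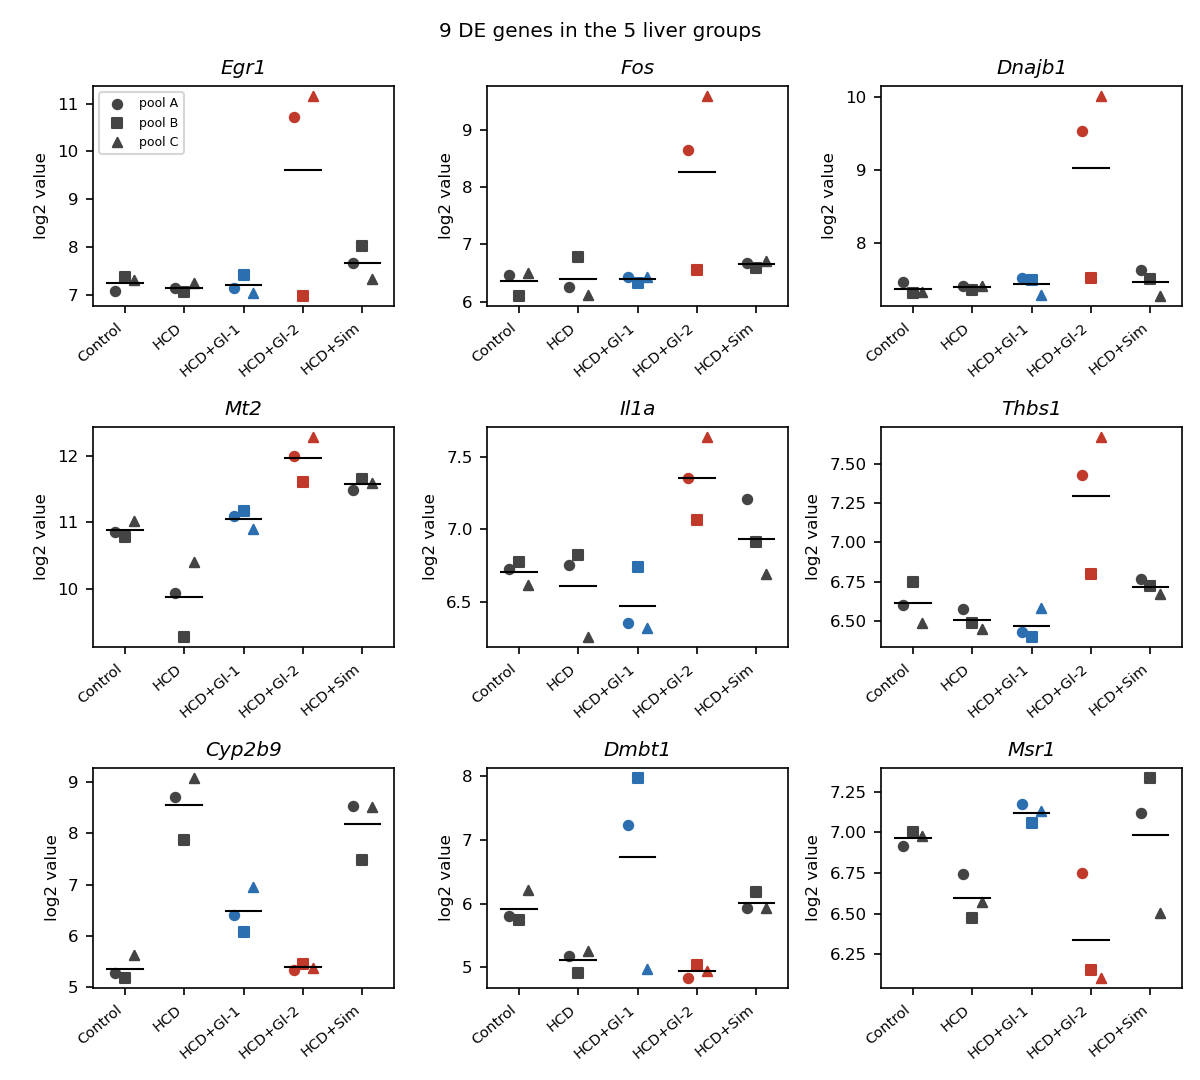
The log2 value of each liver array (y axis) is drawn for 9 DE genes in the 5 diet groups (x axis), with 1 symbol shape for each pool and a line at each group mean. Egr1, Fos and Dnajb1 stand high only in pools A and C of HCD+Gl-2, Mt2 is low in HCD, and Cyp2b9 is high in HCD and HCD+Sim and near the Control level in HCD+Gl-2.

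The same contrast was computed in kidney and brain. In kidney 40 genes were DE (0.181%), 39 higher (0.177%) and 1 lower (0.00453%), and in brain 2 (0.00906%), Krt222 and Gh, both lower. Of the 38 liver genes 17 were DE in kidney, all higher there too: the early regulators Egr1, Egr2, Fos, Jun, Junb, Atf3, Nr4a1, Ier2 and Btg2, and Dnajb1, Hspa1a, Hspa1b, Dusp1, Plk3, Cyr61, Per1 and Snord14e. None of the 38 was DE in brain. In kidney, Egr1 read 10.73, 10.44 and 10.80 on HCD+Gl-2 against 6.72, 6.66 and 7.02 on HCD+Gl-1, so pool B too was far above the HCD+Gl-1 arrays (log2 fold change 3.86, adjusted p 1.25e-06). Pool B was again the lowest HCD+Gl-2 array in all 17, but the median of pool A minus pool B was 0.43 in kidney and 1.24 in liver. Whether the same letter holds the same mice in liver and kidney is not stated.

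The difference between the liver and kidney fold changes was tested in the same fit. It was DE for 21 genes (0.0951%), with a positive difference in 7 (0.0317%) and a negative one in 14 (0.0634%), and 7 of the 21 were among the 38. Nr4a1 was higher in kidney (3.41) than in liver (1.41), a difference of -2.002 (SE 0.39, adjusted p 0.0148), as were Cyr61 (-1.71, adjusted p 0.0297) and Plk3 (-1.40, adjusted p 0.026). Il1a (1.04, adjusted p 0.0148), Gm6484 (1.19, adjusted p 0.0376) and Bud13 (0.995, adjusted p 0.0487) differed more in liver, where their kidney fold changes were -0.16, -0.06 and 0.05. Msr1 was lower with Gl-2 in liver and at 0.07 in kidney, a difference of -0.86 (adjusted p 0.0297). The count of 21 lay between 9 and 99 with 1 array left out. It was 9 without kidney Gl-2 pool A and 99 without liver Gl-1 pool B, and Nr4a1 kept its call in 11 of the 12 such fits, Il1a in 7, Plk3 in 6, Cyr61 in 5, Msr1 in 3, and Bud13 and Gm6484 in 2 each. For Egr1 the difference was -1.44 (adjusted p 0.376) and for Fos -0.70 (adjusted p 0.551), so these were not shown to differ between the tissues. The same difference against brain was DE for 47 genes (0.213%), 28 positive (0.127%) and 19 negative (0.0861%), and 19 of the 47 were among the 38. Both differences contain the liver contrast that chose the 38, so these overlaps are not a separate result. Mt2 was at 0.09 in kidney, and the difference from liver did not pass (0.82, adjusted p 0.114).

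**Figure D5:**
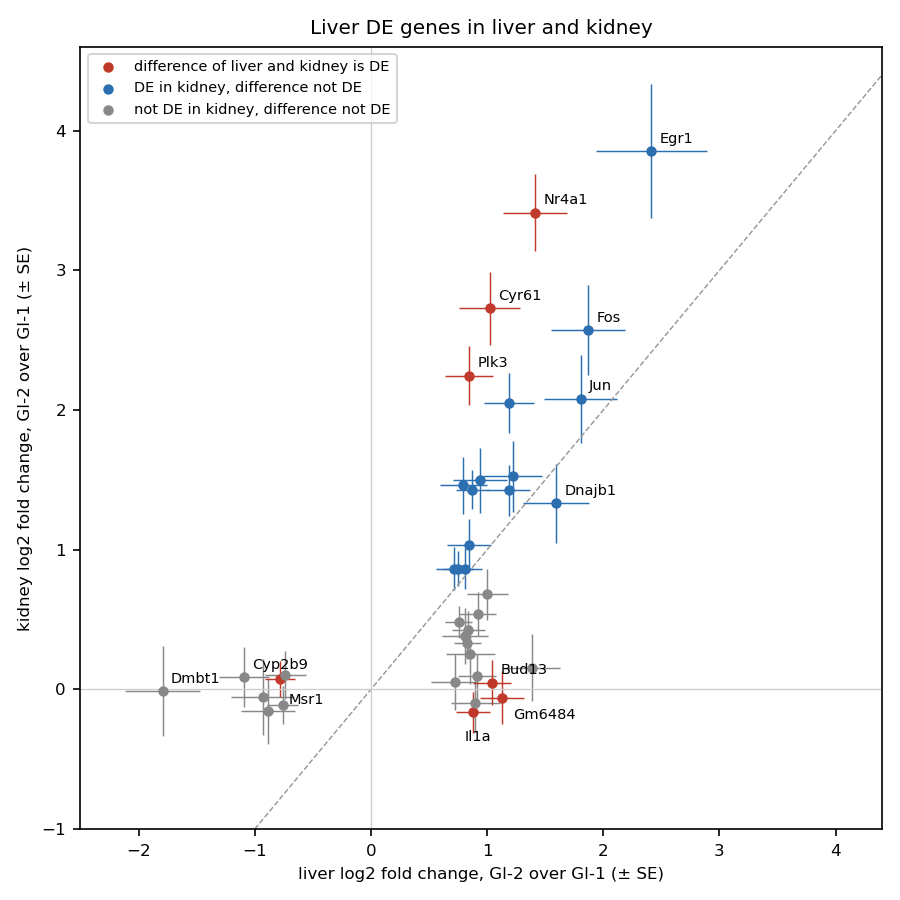
The log2 fold change of Gl-2 over Gl-1 in kidney (y axis) is set against that in liver (x axis) for the 38 liver DE genes, with bars of 1 standard error and a dashed line of equal change. Genes DE in kidney lie to the upper right and the 7 with a DE difference are drawn in red, with Nr4a1, Cyr61 and Plk3 above the line and Il1a, Gm6484, Bud13 and Msr1 near 0 in kidney.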

How the data were processed

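Liver, kidney and brain RNA was hybridised to Affymetrix mouse gene arrays, 1 array for each pool. The authors used RMA background correction, quantile normalization (oligo) and ComBat batch adjustment, kept 1 probe set per gene, and deposited the values on the log2 scale. Neither the batches nor tool versions are given in the sources used here. The deposited table has 22080 rows, 30 of them with names turned into dates or serial numbers, which were tested and are not named. It holds no columns of the authors' own comparisons, and each of its 45 columns was matched to a sample by its name. An array gives no read depth, and the number of arrays limits the precision.

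The 15 group means were estimated from all 45 arrays in a single linear model with limma 3.58.1 in R 4.3.3 (empirical Bayes moderation, 7.34 prior and 30 residual degrees of freedom), with the Benjamini-Hochberg adjustment over all 22080 genes in each comparison. The thresholds for DE genes were those of the methods, an adjusted p of 0.05 or less with a log2 fold change beyond 0.7 in either direction, and every adjusted p in the text is from this fit unless another is named. An exact permutation test of 3 arrays against 3 cannot give a p under 0.1. The members of the gene lists, the tests and the alternatives were chosen with earlier results of these data known, and lists are given by counts and medians only.

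Pool letters come from the labels. The deviations of same-letter arrays from their group means correlated at 0.14 (A), 0.27 (B) and 0.19 (C) across genes between HCD+Gl-2 and HCD+Gl-1, so the letter was also fitted as a block. Named were all DE genes, with array values for the 15 higher and 10 lower with the largest change, members of the lists and markers, the 3 genes on each side of the threshold and the leading genes of kidney and brain. Some genes that meet this rule are left out of the text and of the plot by pool. The alternatives were liver arrays only, compared arrays only, pools A and B only, the block, a filter at a group mean of 5, quantile normalization within tissue, limma trend and robust, no fold threshold, and each array left out. Alternatives for brain and for the values against HCD were added after seeing the data. Promoters are RefSeq sequences (GRCm38.p6), searched in the 250 bases before each start with Python 3.11.15, and figures were drawn with matplotlib 3.10.9.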

Additional observations from a re-analysis of the deposited data

Results flagged for a closer look

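A direct test of the difference between tissues singled out 21 genes for liver against kidney and 47 for liver against brain. Of the liver DE genes, the difference of the log2 fold changes of Gl-2 over Gl-1, liver minus kidney, was -2.002 for Nr4a1, -1.71 for Cyr61, -1.40 for Plk3 and -0.86 for Msr1. It was 0.995 for Bud13, 1.04 for Il1a and 1.19 for Gm6484. For Nr4a1, Cyr61 and Plk3 both tissues were higher with Gl-2 and kidney more so. For Bud13, Il1a and Gm6484 the arrays were higher with Gl-2 in liver, with kidney fold changes of 0.05, -0.16 and -0.06, and Msr1 was lower with Gl-2 in liver and at 0.07 in kidney. The brain count of 47 lay between 4 (without liver Gl-1 pool C) and 166 (without liver Gl-1 pool B) with 1 array left out. Of the 47, 19 were among the 38, which were chosen on the same liver arrays.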

How the results depend on the processing

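The liver count of 38 DE genes became 0 with the 15 liver arrays only, 0 with the 6 compared arrays only, 5 with pools A and B only and 870 with no fold threshold, and lay between 25 and 93 with 1 array left out. The fits on liver or compared arrays only have larger median standard errors. With the pool letter as a replicate block it was 39, all 38 among them, and the block changed no call of the 38. It was 39 with the filter on dim genes (2428 genes removed), 39 with quantile normalization within tissue and 37 with the trend and robust options. The kidney count of 40 became 87 with no fold threshold and lay between 36 and 47 with 1 array left out. The brain count of 2 lay between 1 and 3. The difference of liver and kidney (21) became 11 with the 30 liver and kidney arrays only, 11 with pools A and B only and 49 with no fold threshold, and lay between 9 and 99 with 1 array left out. The difference of liver and brain (47) became 6 with the 30 arrays of those tissues, 3 with pools A and B only and 174 with no fold threshold, and lay between 4 and 166. The 28 of the 38 genes that were DE for Gl-2 against HCD became 5 with liver arrays only and 5 with pools A and B only, and lay between 10 and 32 with 1 array left out. No gene was DE under each of the alternatives, and none of 533 single-gene values changed sign. Of 260 list medians 25 moved by more than the spread over the pools. Beyond the construction of the fits, the cause was not tested. Signal over background is unknown for these values, and 3 arrays from 2 separate pools limit what can be told apart from the spread between mice.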
